A study of Gallus gallus with 2 samples.

Results

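The antigen receptor kinases and adaptors are 8 genes chosen by name: LCK, ZAP70, LCP2, BTK, BLK, SYK, FYN and LYN. They have 9 probes among the 42034 probes of the array, and 8844 genes could be named on it in all. LCP2 has 2 probes and each other gene has 1. A probe was taken as a member where the gene symbol or the target description in the files gives that gene itself, and not a gene that only binds it or is its substrate.

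RNA was extracted at day 14 from the intestinal intraepithelial lymphocytes of broilers. The DFM group had received direct fed microbials, live microorganisms given with the feed, and the control group had not been treated. The strains of microorganism and the number of birds behind each RNA are not given in the sources used here. Each of 2 two-colour arrays carried DFM RNA beside control RNA, with DFM in Cy5 and control in Cy3 in replicate 1 and the dyes exchanged in replicate 2. The labels describe the second array as a biological replicate and also as the dye exchange of the first. The p-values therefore cover only how far 2 arrays differed, largely as pooled over all tested probes and not for each probe alone. That difference may be technical. Both arrays lay on 1 slide and were scanned together, and each carried both groups.

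Antigen receptors of T and B cells have no enzyme activity of their own. In mammals, where most of this pathway was worked out, kinases of the SRC family (LCK and FYN in T cells, LYN and BLK in B cells) phosphorylate the receptor tails. ZAP70 in T cells and SYK in B cells dock there, and they pass the signal to adaptors such as LCP2, also called SLP-76, and to kinases such as BTK. Intraepithelial lymphocytes are mostly T cells and sit within the epithelium of the gut.

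Probe positions are those of the chicken build galGal2, as the files give them. The LCK probe lies at chr23:4580055-4580114 on the minus strand, and its target is described as the 5′ end of the mRNA. The ZAP70 probe lies at chr28:1640396-1640455 on the minus strand. The brighter LCP2 probe lies at chr13:5674611-5674670 and the other at chr13:5677382-5677441, both on the minus strand. The FYN probe lies at chr3:64418827-64418886 and the BLK probe at chr3:105173495-105173554, both on the plus strand. The BTK probe is given at chr4:1875183-1875715 on the plus strand, a span of 533 bases where the other 8 probes span 60. The SYK probe lies at chrZ:19644102-19644161 on the minus strand. Its target description gives the NCBI gene identifier 427272 in place of a symbol, and the accession of its target is named SYK in RefSeq's table. The LYN probe lies at 38447485 to 38447544 on the plus strand of Un, the sequence placed on no chromosome. Exon, intron or UTR was not assigned, because no annotation of that build was used here.

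Of the 8 genes, BTK and LYN were lower in DFM than in control lymphocytes, each by under 1 log2 unit, and no member was higher. LCP2, BLK and ZAP70 had negative ratios that did not pass the test, LCK and FYN lay near 0, and SYK was too dim to be tested. All these directions are set against the average probe on each array. Set to the spike-in RNAs added at labelling, the 7 tested members had mean log2 ratios of DFM over control between 1.39 and 2.21, in a scaling that moved the median of all tested probes to 2.16. Relative to that median, BTK lay at -0.77 and LYN at -0.65, the same as with median centring. Both scalings shift every probe of an array by the same amount, so these distances could not change. Neither BTK nor LYN was called with either scaling, and LYN was not called with the scanner software's own ratios. The RNA came from whole preparations of lymphocytes. Fewer cells that express a gene, more RNA from other cells and less of its RNA per cell cannot be told apart there.

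Across the array, 18242 probes entered the test because at least 1 group was well above background in both replicates. Of the non-control probes, 21122 and 17331 were well above background in the DFM channels of replicates 1 and 2, against 16889 and 20465 in the control channels. The test was limma's lmFit and eBayes with Benjamini-Hochberg adjustment, and a probe was called at an adjusted p under 0.05. It called 10.5% of all tested probes lower and 12.1% higher in DFM, which is 1918 and 2202 probes. With median centring 8 were lower and 109 higher, and set to spike-in RNAs 0 were lower and 229 higher. The median log2 ratio over all tested probes was 0.00, and the median gap between the 2 arrays' log2 ratios was 0.19. Values below are normalized log2 signals or log2 ratios of DFM over control, SE is limma's, and n is 2 arrays throughout. Signals may be compared between channels of the same probe but not between probes. The lowest normalized log2 signal of any probe well above background was 5.61 and 6.06 in the DFM channels and 6.10 and 5.95 in the control channels of replicates 1 and 2.

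**Figure D1:**
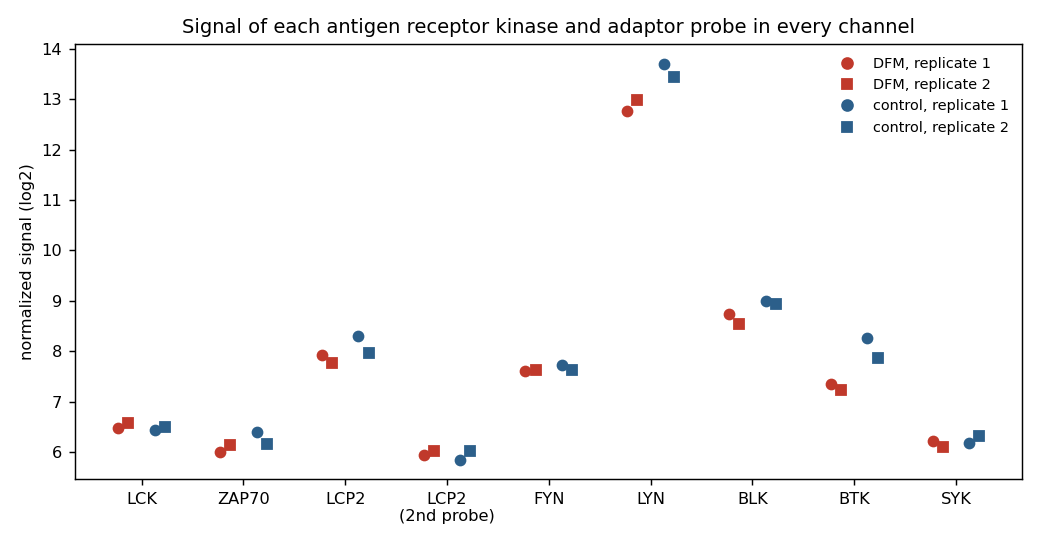
Normalized log2 signal (vertical axis) of the 9 member probes in each channel, with DFM in red left of control in blue, circles for replicate 1 and squares for replicate 2. Both DFM points of BTK, LYN, BLK, ZAP70 and the brighter LCP2 probe lie below both control points, as in 33.9% of all tested probes. The points of LCK and FYN overlap. Levels may be compared within a probe only.

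LCK, the kinase that phosphorylates the T cell receptor tails in mammals, had a log2 signal of 6.48 and 6.58 in DFM and 6.44 and 6.50 in control on replicates 1 and 2. The groups overlapped, since the lower DFM channel lay between the control channels. The log2 ratios of DFM over control were 0.04 and 0.09, with a mean of 0.06 (SE 0.12, 95% interval -0.22 to 0.35, adjusted p = 0.749). The probe was well above background in every channel but dim, and the main normalization compresses ratios of dim probes. With an offset of 0 in the background correction the mean was 0.13, and with the scanner software's own ratios it was 0.21, and neither was called. Of the tested members, LCK alone had a positive ratio on both arrays.

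FYN, the other SRC family kinase of T cells, had a log2 signal of 7.60 and 7.63 in DFM and 7.72 and 7.62 in control. Its groups overlapped as well. The log2 ratios were -0.12 and 0.00, with a mean of -0.06 (SE 0.13, 95% interval -0.34 to 0.23, adjusted p = 0.772). For LCK and FYN the mean ratio was smaller than its SE.

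ZAP70, the kinase that docks on the phosphorylated T cell receptor, had a log2 signal of 6.0 and 6.14 in DFM and 6.39 and 6.16 in control. The DFM signals lay below the control signals, but the groups were set apart by replicate 1, and on replicate 2 the channels nearly coincided. ZAP70 was well above background on 1 of the 2 arrays in DFM and on both in control. It thus entered the test through control alone, the group where its signal was higher. Its log2 ratios were -0.40 and -0.02, with a mean of -0.21 (SE 0.14, 95% interval -0.53 to 0.11, adjusted p = 0.314). The deposited ratios of the scanner software gave log2 values of -1.63 and 0.52, opposite in sign between the arrays.

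LCP2, the adaptor that ZAP70 phosphorylates, had a log2 signal of 7.92 and 7.77 in DFM and 8.30 and 7.97 in control at its brighter probe. Both DFM channels lay below both control channels. The log2 ratios were -0.38 and -0.20, with a mean of -0.29 (SE 0.13), and the adjusted p of 0.135 did not pass the threshold. The other LCP2 probe stayed untested, as no channel was well above background. It had a log2 signal of 5.95 and 6.03 in DFM and 5.85 and 6.01 in control, and its log2 ratios were 0.10 and 0.01.

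LYN, the SRC family kinase that starts B cell receptor signalling in mammals and is also present in myeloid cells, had a log2 signal of 12.77 and 12.98 in DFM and 13.70 and 13.44 in control. Both DFM channels lay below both control channels. The log2 ratios were -0.94 and -0.46, with a mean of -0.70, which is 1.62-fold lower in DFM (SE 0.15, 95% interval -1.04 to -0.36, adjusted p = 0.0124). In these normalized ratios the fall was larger on replicate 1, and the value without replicate 1 was -0.46. Before normalization, the signal less background was 11154 in DFM and 9358 in control on replicate 1. On replicate 2 it was 5156 in DFM and 15262 in control. The size of the fall on each array thus rests on the normalization. With the scanner software's own ratios the mean was -0.77 and the adjusted p was 0.0797, and with median centring they were -0.66 and 1.00, so the call rests on the normalization. Over the 7 alternatives other than spike-ins that give one, the adjusted p ran between 0.00298 and 1.00.

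BLK, the SRC family kinase named for B cells and also found in some T cells of mammals, had a log2 signal of 8.74 and 8.55 in DFM and 8.99 and 8.94 in control. Both DFM channels lay below both control channels. The log2 ratios were -0.25 and -0.40, with a mean of -0.32 (SE 0.13, 95% interval -0.61 to -0.04), and the adjusted p of 0.10 did not pass the threshold. With the main normalization, the replicate 1 ratio was the lower one in the other 6 tested members, and BLK was the exception.

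BTK, the kinase that activates phospholipase C gamma in B cells and is present in myeloid cells too, had a log2 signal of 7.36 and 7.24 in DFM and 8.27 and 7.87 in control. Both DFM channels lay below both control channels. The log2 ratios were -0.91 and -0.64, with a mean of -0.77, which is 1.71-fold lower in DFM (SE 0.13, 95% interval -1.07 to -0.47, adjusted p = 0.00518). With the scanner software's own ratios the mean was -1.16 (adjusted p = 0.0416), and with median centring it was -0.78 with an adjusted p of 1.00. The call of BTK thus depended on the normalization too. Over the 7 alternatives other than spike-ins that give one, its adjusted p ran between 0.000899 and 1.00.

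SYK, the docking kinase of the B cell receptor, was well above background on 1 of 2 arrays in DFM and on 1 of 2 in control, and it was not tested. Its log2 signal was 6.22 and 6.11 in DFM and 6.18 and 6.33 in control, and the groups overlapped. The log2 ratios were 0.05 and -0.22. Whether SYK differed between the groups was therefore not assessed.

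**Figure D2:**
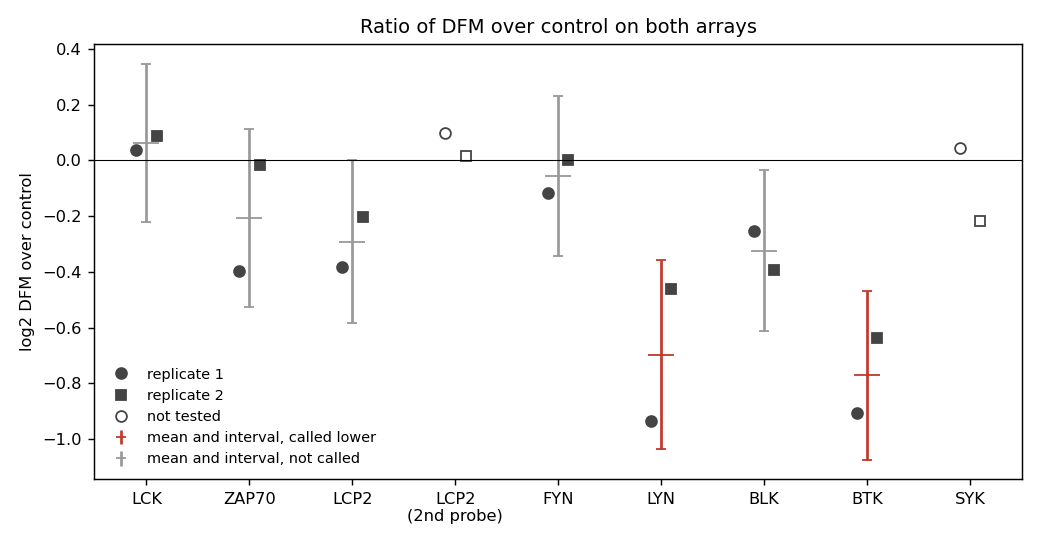
Log2 ratio of DFM over control (vertical axis) of each member probe on replicate 1 (circles) and replicate 2 (squares), with the mean and limma's 95% interval for tested probes. The intervals of BTK and LYN, in red, lie further below 0 than those of the other members, relative to the average probe. Set to spike-in RNAs both means are positive, at 1.39 and 1.51. They stay below the median of all tested probes, which that scaling moved to 2.16.

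In all, 2 of the 7 tested members were called lower and 0 higher, beside 10.5% and 12.1% of all tested probes. Over named genes, each taken at its brightest tested probe, 14.6% were called lower and 8.50% higher, and their median log2 ratio was -0.08. The median log2 ratio of the 7 tested members was -0.29, with -0.38 on replicate 1 and -0.20 on replicate 2. Ratios were negative on both arrays for ZAP70, LCP2, LYN, BLK and BTK, positive on both for LCK and of opposite sign for FYN. In 5 of the 7, both DFM channels lay below both control channels, an arrangement that 33.9% of all tested probes had. Of these 5, ZAP70 entered the test through control alone, and its channels nearly coincided on replicate 2. The reverse arrangement occurred in 0 members and in 34.1% of all tested probes. Of all tested probes, 2.38% had a lower mean ratio than BTK and 3.27% a lower one than LYN. The shares were 16.1% for BLK, 18.2% for LCP2, 25.5% for ZAP70, 42.8% for FYN and 57.2% for LCK.

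**Figure D3:**
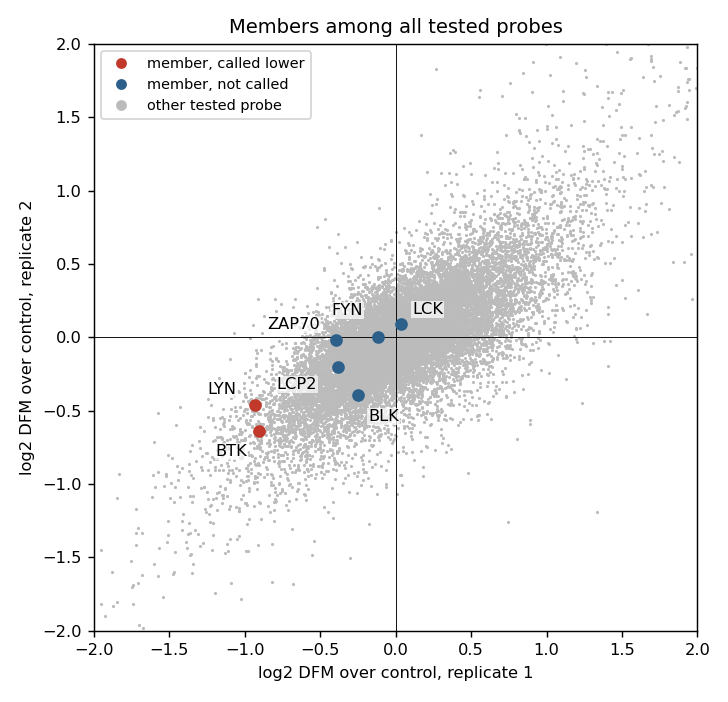
Log2 ratio of DFM over control on replicate 1 (horizontal axis) and replicate 2 (vertical axis), with all tested probes in grey and the 7 tested members in colour; 187 of 18242 probes lie outside the axes. BTK and LYN lie in the lower left among many other probes, and LCK, FYN and ZAP70 lie close to the horizontal line at 0 on replicate 2.

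The error model of the scanner software gives a p-value for each probe within 1 array. It was under 0.01 on both arrays, in the same direction, for BTK and LYN alone among the tested members. By that rule, 1860 of all 18242 tested probes were lower and 1865 higher. For BTK the deposited p-values were 1.49e-08 and 3.01e-05, and for LYN they were 1.75e-05 and 0.00567. These p-values describe the error within each array and not the spread between birds. The named genes with ratios most like those of BTK over the 2 arrays, by distance in the plane of both ratios, were AGR2 at -0.93 and -0.64 and GSN at -0.94 and -0.64. In all, 79 other tested probes, AGR2 and GSN among them, lay within 0.1 of BTK on both arrays. For LYN the nearest named genes were PHAF1 at -0.96 and -0.44 and UGP2 at -0.97 and -0.45, with 55 probes within 0.1.

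**Figure D4:**
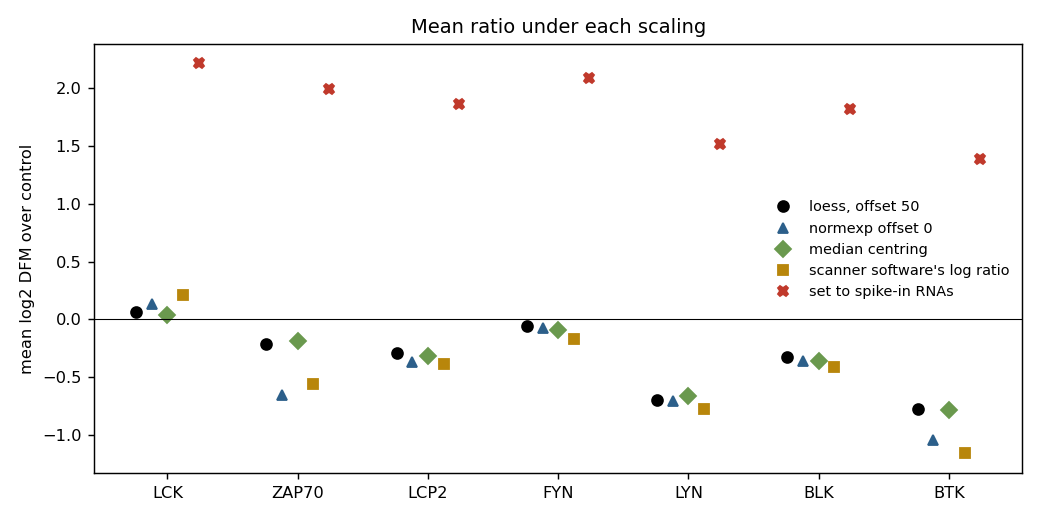
Mean log2 ratio of DFM over control (vertical axis) of the 7 tested members under 5 scalings. BTK and LYN are negative under 4 of them and lie at 1.39 and 1.51 when set to spike-in RNAs, a scaling that moved the median of all tested probes to 2.16.

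The other genes of antigen receptor signalling were taken from 5 lists of 96 genes in all, of which 50 had a named probe and 41 were tested. Of these 41, 4 were lower in DFM, 8 were higher and 29 did not pass the test, beside 14.6% lower and 8.50% higher over all named genes. Their median log2 ratio was -0.08, the same as over all named genes. These directions are again relative to the average probe, and set to the spike-in RNAs no gene of the 5 lists was called in either direction.

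Among receptor subunits and coreceptors, 1 of 7 tested genes fell, 0 rose and 6 did not pass, with a median of -0.12. The shares over all named genes were 14.6% lower and 8.50% higher. CD3D, a signalling chain of the T cell receptor, fell, with log2 ratios of -0.44 and -0.66 (adjusted p = 0.0186). With an offset of 0, median centring, the scanner software's ratios or its within-array p-values, 0 genes of this list were lower, and 1 was higher in each of these except median centring. CD3E, its partner chain, had ratios of -0.79 and -0.14 and did not pass (adjusted p = 0.0763). The related tyrosine kinases had 3 tested genes and 0 calls, with a median of -0.01. CSK, which inhibits LCK, FYN and LYN by phosphorylating their tails, had ratios of 0.30 and 0.25 (adjusted p = 0.142).

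Among adaptors, 1 of 7 tested genes fell and 0 rose, with a median of -0.25, beside 14.6% lower and 8.50% higher over all named genes. GRB2, which links phosphorylated receptors to RAS activation, fell, with ratios of -0.95 and -0.54 (mean -0.74, adjusted p = 0.00810). With median centring or the scanner software's ratios 0 adaptors were lower. LAT and BLNK, the scaffolds that work with LCP2 in T cells and with BTK in B cells, had no probe named here.

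Among effectors, 4 of 14 tested genes rose, 1 fell and 9 did not pass, with a median of -0.00, beside 8.50% higher and 14.6% lower over all named genes. With an offset of 0, 1 effector was higher and 0 were lower, with the scanner software's ratios 0 were higher and 1 was lower, and with median centring 0 were called. STIM1, the calcium sensor of the endoplasmic reticulum, rose with ratios of 0.90 and 0.80 (adjusted p = 0.00256). PPP3CA, the catalytic subunit of calcineurin, rose with a mean of 0.51 (adjusted p = 0.0226), and VAV2, a guanine nucleotide exchange factor, rose with a mean of 0.49 (adjusted p = 0.0243). PDPK1, a kinase that activates AKT, fell with ratios of -0.44 and -0.77 (adjusted p = 0.0161). PLCG2, the phospholipase that BTK phosphorylates, had ratios of -0.38 and 0.00 and did not pass (adjusted p = 0.358).

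Among regulators, 4 of 10 tested genes rose, where 8.50% of all named genes did, and 1 fell, where 14.6% did. The other 5 did not pass, and the median of the list was 0.05. With the scanner software's ratios 1 was higher and 1 lower, and with median centring 0 were called. INPP5D, the lipid phosphatase SHIP1, rose with ratios of 0.65 and 1.15 (adjusted p = 0.00464), and PDCD1, the inhibitory receptor PD-1, rose with 0.74 and 0.93 (adjusted p = 0.00313). PTPN2, a tyrosine phosphatase, rose with 0.71 and 0.78 (adjusted p = 0.00456), and CD5, a T cell surface receptor, rose with 0.61 on both arrays (adjusted p = 0.0104). PTPN11, the tyrosine phosphatase SHP2, fell with -0.69 and -0.64 (adjusted p = 0.00731). PTPRC, the phosphatase CD45 that activates LCK, was not well above background in any channel. A dim probe does not show that the RNA was absent, and the cause was not tested.

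**Figure D5:**
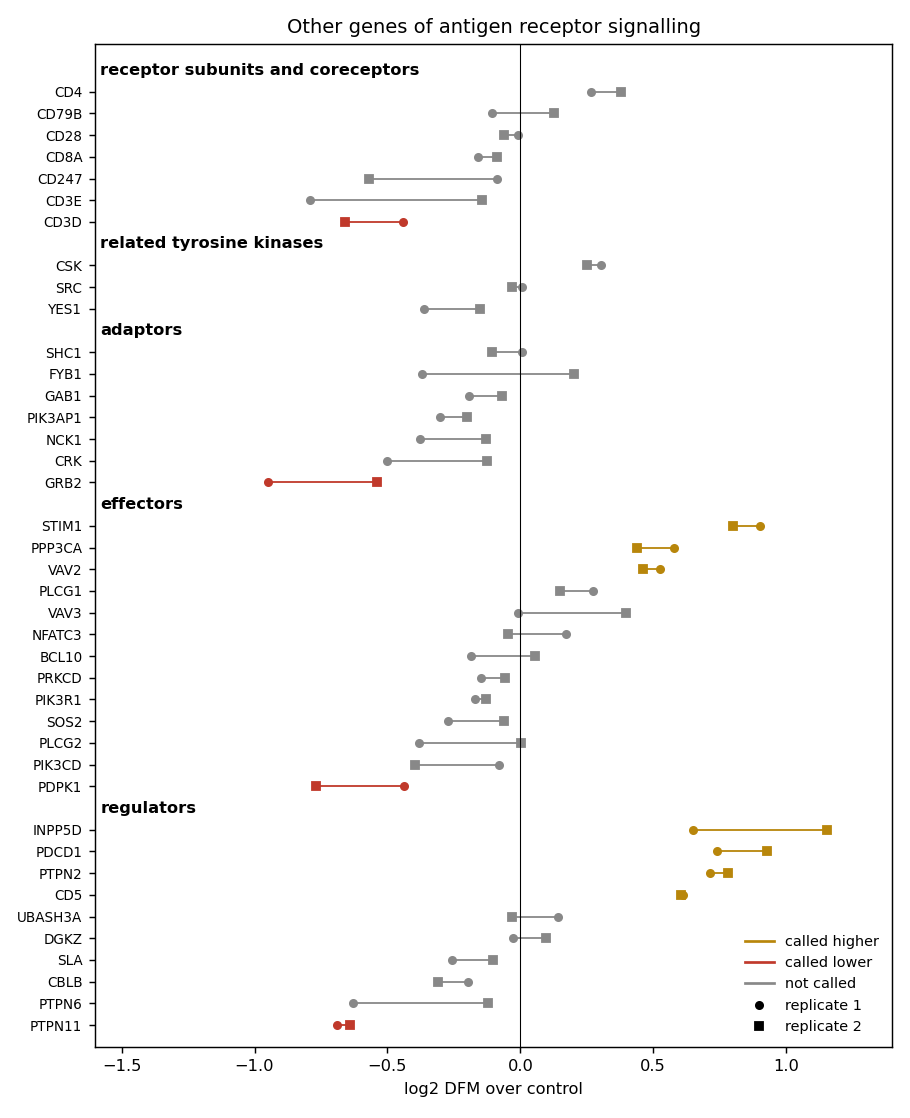
Log2 ratio of DFM over control (horizontal axis) of 40 of the 41 tested genes of the 5 pathway lists on replicate 1 (circles) and replicate 2 (squares), joined by a line. The called genes drawn are 4 lower ones in red and 7 higher ones in gold, relative to the average probe; set to spike-in RNAs none is called.

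Markers of the cell types that such a preparation could hold were read beside the members. Their counts stand beside 8.50% higher and 14.6% lower over all named genes. Of the T cell list, 8 of 12 genes were tested, with 1 higher and 1 lower. Its log2 summed signal over tested genes was 15.23 and 14.98 in DFM and 15.65 and 15.59 in control. Such a sum follows its brightest probes and is read between channels only, not between genes or lists. All 8 were well above background in at least 1 group. CD3D made up most of that sum, with a log2 signal of 15.07 and 14.80 in DFM and 15.51 and 15.46 in control, and among the other T cell markers CD5 was called higher. Of the 12 B and plasma cell markers, 5 had a probe and 2 were tested, CD79B at -0.11 and 0.13 and POU2AF1 at 0.00 and -0.16, with 0 called. Their log2 summed signal was 9.11 and 9.20 in DFM and 9.20 and 9.12 in control, so the groups overlapped, and EBF1 was not well above background in any channel. Of the macrophage and granulocyte list, 7 genes were tested, with 3 higher (S100A12, LYZ and CEBPB) and 0 lower, while CSF1R and CSF3R were not well above background. The log2 summed signal of that list was 15.74 and 15.74 in DFM and 16.04 and 16.04 in control, and CD74 alone stood at 15.69 and 15.70 in DFM and 16.02 and 16.01 in control. Enterocyte markers had 1 higher and 4 lower of 12 tested, with a log2 summed signal of 19.40 and 19.00 in DFM and 19.24 and 19.45 in control. Erythrocyte and thrombocyte markers had 1 higher and 2 lower of 4 tested, with 15.56 and 15.34 in DFM and 16.10 and 16.18 in control. The higher one, HBE1, entered the test through DFM alone, the group where its signal was higher. All 10 tested exocrine pancreas markers were higher in DFM, with a median log2 ratio of 2.54 and a log2 summed signal of 14.45 and 14.41 in DFM and 10.31 and 10.33 in control. Of these, CPB1, CTRL, CTRC, PNLIPRP1 and CEL entered the test through DFM alone, the group where their signal was higher. The filter thus favoured a higher call in them, and the count of 10 partly reflects it. The part of these other cells in the ratios of BTK and LYN was not tested.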

How the data were processed

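Each spot's deposited intensity values are, per the file headers, its mean signal and its median local background in each dye, with no background removed. Per the file headers, the deposited files also hold a log10 ratio (Cy5 over Cy3) that the scanner software background-subtracted and dye-normalized, its p-value within 1 array, and flags for spots well above background, saturated, outlying or control. The authors' deposited series table holds log2 values, and over tested probes each lay within 0.01 of the scanner software's log2 ratio turned to DFM over control. Of all 42029 probes compared, 13242 on replicate 1 and 13045 on replicate 2 were off by more than 0.01, with 0 tested probes among them. The column medians over those 42029 probes were -0.274 and 0.204. For tested probes, the table's scale, centring and direction are thereby known. Feature Extraction is version 10.7.3.1 per the submitters' processing notes and 9.5.3.1 per the file headers.

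Signals were background-corrected with normexp at an offset of 50 and normalized by loess within each array with control spots given weight 0 (limma 3.58.1, R 4.3.3, the data.table package at 1.17.8). Channel signals were put on 1 scale with Aquantile. Control spots (1417 of 43451) and 5 probes with an outlier flag did not enter, and 0 probes were saturated. Probes well above background on both arrays in at least 1 group were tested (18242, with 23787 left out). The replicate 2 ratio was turned, and each probe's mean was tested against 0, two-sided, with lmFit and eBayes (1 residual and 7.52 prior degrees of freedom) and Benjamini-Hochberg adjustment over all tested probes. The fit was tested on simulated data. A dye term would leave no residual degrees of freedom. The offset compresses ratios of dim probes, and the number of arrays limits the precision.

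Probes were named from accessions, gene identifiers and symbols through NCBI's table for GRCg7b (10339 of 42034 probes), used for names only. The text names every member probe, of each pathway list up to 6 called genes with the largest mean ratio, LAT, CSK, PTPRC, PLCG2, BLNK and CD3E whatever they showed, and the 2 named genes nearest to each called member, and a few genes that this rule gives are not reported here. Members and lists were chosen with earlier results of these data known. The alternatives were an offset of 0, median centring, the scanner software's ratios, the authors' values, spike-in scaling, no filter on dim probes, a filter on all channels, a fit of the named genes, the within-array p-values and leaving out each array.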

Additional observations from a re-analysis of the deposited data

How the results depend on the processing

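Apart from the spike-in scaling, the means of all 7 tested members kept their sign under the 8 other alternatives. For ZAP70 these were 7, as the filter on all channels removed it. Most of these alternatives could not move a mean. The changes of filter and the fit of the named genes reuse the main ratios. The authors' values and the within-array p-values go with the scanner software's ratios. Only an offset of 0, median centring and the scanner software's ratios gave means of their own. Without either array the members kept their sign too, except FYN, which was -0.12 without replicate 2 and 0.00 without replicate 1. Set to the spike-in RNAs, ZAP70 was 1.99, LCP2 1.85, BTK 1.39, BLK 1.81, FYN 2.08 and LYN 1.51, and 0 members were called. The 10 spike-in RNAs had a median log2 ratio before loess of -0.52 on replicate 1 and -3.81 on replicate 2, and the cause of that gap was not tested. With median centring BTK was -0.78 and LYN -0.66, and neither was called. Under the scanner software's ratio or the authors' series table, LYN was -0.77 and not called, and 1 member was lower. ZAP70 lay between -0.65 and -0.18 over the 7 alternatives other than spike-ins, and at -0.40 and -0.02 on the single arrays. All tested probes called lower numbered 1918, against 8 with median centring and 951 by the scanner software's ratio or the series table. With spike-in scaling 0 were lower. Those called higher numbered 2202, against 109 with median centring, 1179 by the scanner software's ratio or the series table and 229 with spike-in scaling. The fit of 1 probe per named gene held only 6143 of the 18242 tested probes. It called 1084 of them lower and 628 higher, where the main fit called 895 and 522 of the same probes. Of the pathway lists, receptor subunits had 1 lower, against 0 with an offset of 0, the scanner software's ratio, median centring, the series table, spike-in scaling and the within-array p-values, and 2 in the gene fit. They had 0 higher, against 1 with an offset of 0, the scanner software's ratio, the series table and the within-array p-values. Adaptors had 1 lower, against 0 with the scanner software's ratio, median centring, the series table and spike-in scaling. Effectors had 1 lower, against 0 with an offset of 0, median centring and spike-in scaling, and 4 higher, against 1 with an offset of 0 and the within-array p-values and 0 with the scanner software's ratio, median centring, the series table and spike-in scaling. Regulators had 1 lower, against 2 with an offset of 0 and the within-array p-values and 0 with median centring and spike-in scaling, and 4 higher, against 1 with the scanner software's ratio and the series table and 0 with median centring and spike-in scaling. The cause of these differences was not tested. With 1 array left, no test could be made, and the values are each array's own ratios. Both groups share each array, so the test of ratios is paired by array, and no further replicate block could be fitted.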

Other observations

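The target descriptions name a member as the partner of another gene at 4 further probes, chosen after their values were seen. HCLS1, a substrate of LYN in mammals, had a normalized log2 signal of 7.98 and 8.17 in DFM and 9.12 and 8.73 in control on replicates 1 and 2. Both DFM channels lay below both control channels, and the log2 ratios of DFM over control were -1.14 and -0.56 (mean -0.85, limma's adjusted p = 0.00741). Of all tested probes, 33.9% had that arrangement, and 14.6% of named genes were called lower. With median centring 8 of all tested probes were called lower, and with spike-in scaling 0. FYB1, which binds FYN and LCP2, had ratios of -0.37 and 0.20 (adjusted p = 0.733). The related FYB2 had ratios of 0.15 and 0.27 (adjusted p = 0.257), and neither was called. SH3BP5, which binds BTK, was not well above background in any channel.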
